A study of Homo sapiens with 4 samples.

Results

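The 42 genes described here encode the enzymes, loading factors and regulators of DNA replication and S phase. They were named as a list before this report and chosen with earlier results of these data known, and each was read from the brightest probe set that the array's annotation pairs with that gene alone. All 42 were on the array, out of 19775 genes with such a probe set, and all 42 passed the filter on low signals. Replication starts when the origin recognition complex, CDC6 and CDT1 load the MCM helicase onto DNA in G1. CDC45 and the GINS complex then turn the helicase on, and polymerases, the PCNA clamp and its RFC loader copy the strands. Most of these genes are targets of the E2F factors, which the retinoblastoma protein restrains until cyclin-dependent kinases release them, so their messages rise together as cells enter S phase.

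The cells were U87TR-Da, made from U87MG, an established human glioblastoma line, so that doxycycline turns on DACH1, a nuclear factor of the Dachshund family. The study compared DACH1-silenced with DACH1-induced cells, grown either in DMEM that held 10% fetal bovine serum or in Neurobasal medium without serum, to which bFGF, EGF and the N-2 and B-27 supplements were added, on 1 Affymetrix array per condition, 4 arrays in all. Doxycycline at 1 µg/mL for 72 h is written for silenced and induced samples alike, and how silencing was kept is not stated. The labels do not say whether U87TR-Da is 1 clone or which promoter drives DACH1, and every condition has 1 array. DACH1 itself read 126.0 silenced and 4431 induced in the cultures labelled serum. In those labelled serum-free it read 32.5 and 875.1. Induced cells were thus 35.2-fold and 26.9-fold higher, as labelled. Values are deposited MAS5 signals, in arbitrary units on a linear scale, and a signal of 1 gene is not set against that of another.

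The medium labels need a caution. Genes driven by SRF or YAP, factors that serum activates, were higher on the arrays labelled serum-free in 7 of 9 measured cases and lower in 0 (limma, adjusted p at most 0.05). Of all genes tested, 15.4% were higher and 12.7% lower. CCN1 and CCN2 were the ones not called. ACTG2, which was lower with the serum-free label in both DACH1 states, and ANKRD1, which read at most 6.6, did not enter the fit. CNN1, a smooth muscle gene, read 33.2, 39.4, 874 and 607 on the silenced and induced arrays labelled serum and then the silenced and induced arrays labelled serum-free. Of 10 genes of sterol synthesis and uptake, which cells usually raise when lipids run short, 1 was higher and 0 lower on the arrays labelled serum-free. Neither count is far from the shares of all genes given above. Their median log2 difference was -0.45, but it was -0.06 between the silenced arrays and -0.61 between the induced ones. On the arrays labelled serum all 10 were higher in induced than in silenced cells. The arrays are therefore called "labelled serum" and "labelled serum-free". Whether the labels were exchanged was not tested, and an exchange would turn the sign of each medium difference below. The DACH1 difference of each pair of arrays would keep its sign and belong to the other medium. Among 10 glioma cell markers VIM, CD44, S100A6, ANXA2 and EGFR were bright, while GFAP and SOX2 read under 10.9, the floor used here, on all 4 arrays. PTPRZ1 was under the floor on 3 arrays, NES read between 19.6 and 35.8, and CHI3L1 between 21.4 and 103.1. The 4 blood cell markers lay between 0.6 and 22.5 and the 5 epithelial ones between 1.1 and 45.6. The 5 endothelial markers lay between 0.5 and 127.8, the highest being KDR. With the serum-free label KDR fell, TEK rose and 1 further endothelial marker tested was not called. Summed, the endothelial markers read 126, 185, 109 and 104 in the same order of arrays, and their part in the results was not tested.

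The main pattern was a higher signal of replication genes in both cultures labelled serum-free. Of the 42 genes, 28 rose and 0 fell on the arrays labelled serum-free against those labelled serum, in a limma fit to log2 signals that had terms for medium and for DACH1 state. The fit called 15.4% of all 12103 genes tested as higher and 12.7% as lower. The median log2 difference was 1.20 over the 42 genes and 0.02 over all genes tested, with 0.40 for 12 housekeeping genes, of which 1 rose. For 39 of the 42 both serum-free signals lay above both serum signals, against 37.4% of all genes tested. The exceptions were RFC4 and SLBP, whose arrays overlapped, and TIPIN, which was lower on both arrays labelled serum-free, as were 35.4% of all genes tested. Without a filter on low signals the fit called 0 of the 42, although 26 then had an unadjusted p under 0.05 in limma. With 1 residual degree of freedom, a gene's own error is how far its DACH1 difference varied with medium. The eBayes step of limma pulls that error towards a value shared by all genes tested. A p-value here reflects the spread of these arrays alone.

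Each DACH1 state showed the difference by itself. In silenced cells the array labelled serum-free was higher by 2-fold or more for 25 of the 42 genes, beside 15.3% of all genes, and lower by as much for 0, beside 12.2%. In induced cells 23 were higher and 0 lower, beside 14% and 10.1% of all genes. Signals were above 0 in log2 difference for 40 of the 42 in silenced cells (52.7% of all genes, median of the 42 1.19) and for 40 in induced cells (50.5% of all genes, median 1.06). Across the 42 genes the differences of these pairs, which share no array, had a Pearson correlation of 0.81, and across all genes tested it was also 0.81. In RNA from a whole culture, more cells in S phase and more message per cell cannot be told apart.

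**Figure D1:**
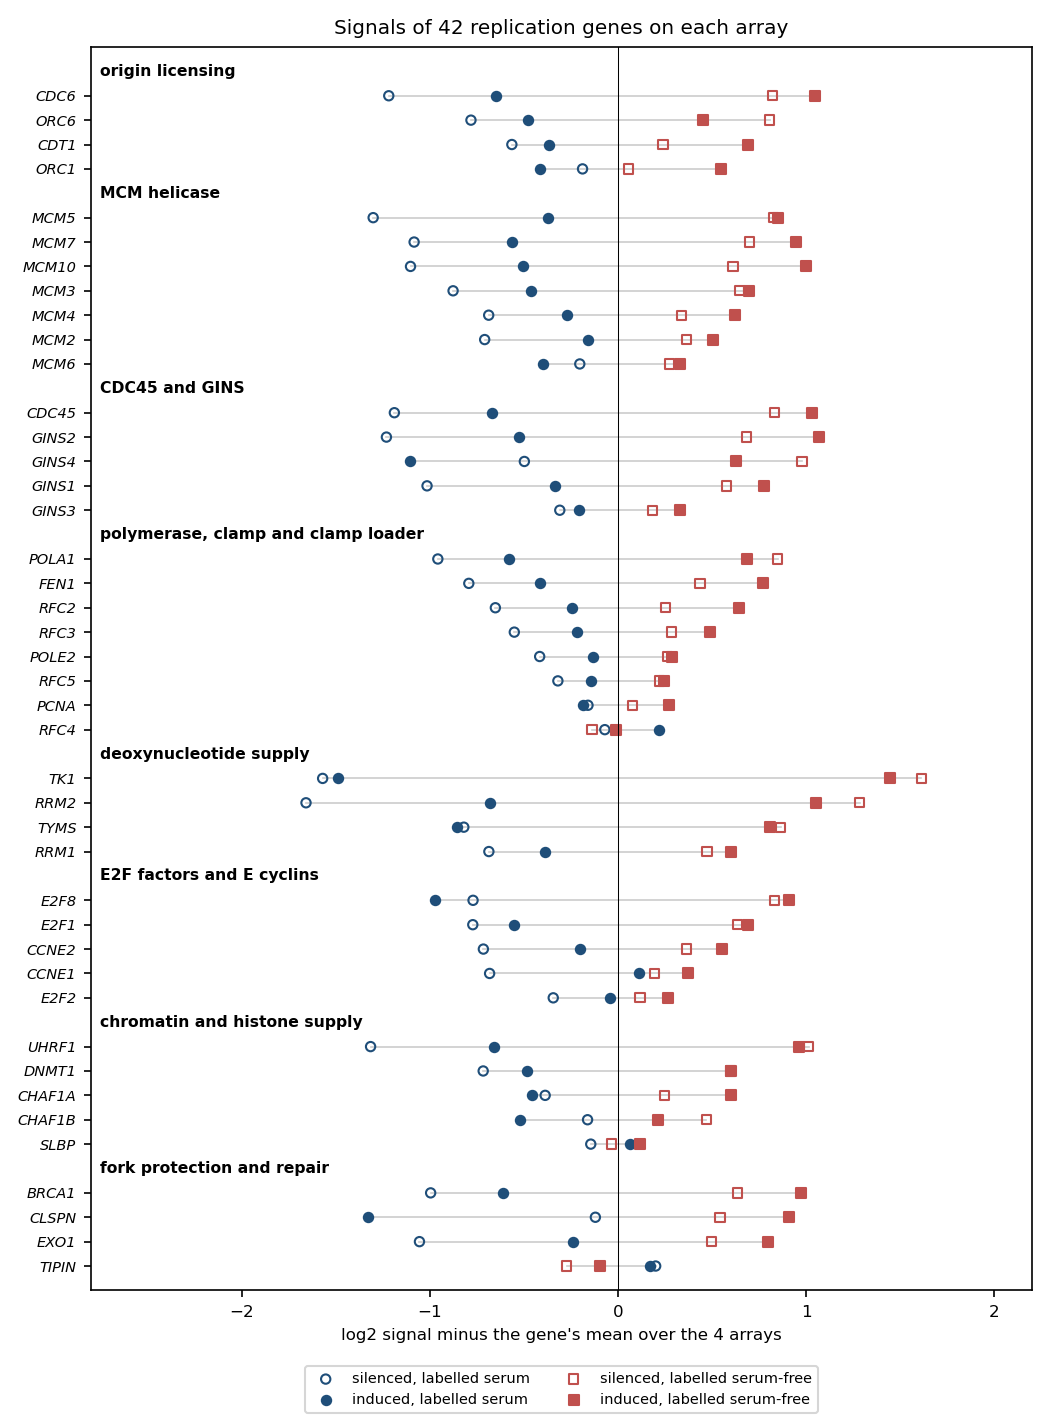
Log2 signal of each of the 42 genes on each array, relative to the mean of that gene over the 4 arrays, grouped by role; circles are arrays labelled serum, squares arrays labelled serum-free, open silenced and filled induced. For 39 genes both squares lie to the right of both circles, and RFC4, SLBP and TIPIN are the exceptions.

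The promoters of 8 of these genes are shown because they put known control elements of replication genes beside the size of the medium difference. TK1, RRM2, UHRF1 and CDC6 had the largest differences among genes with a promoter window, PCNA, RFC4 and TIPIN were among the 4 smallest or most negative, and E2F1 encodes a factor that binds such elements. Windows came from RefSeq on GRCh38.p14, and 37 of the 42 genes had one. Where RefSeq gives several start sites, the first listed was used. Each line gives the 250 bases before the start site, 5′ to 3′ on the strand of the gene. Capitals mark an E2F element (TTTCCCGC, TTTCGCGC, TTTGCCGC or TTTGGCGC) or a CCAAT box (CCAAT), each searched on both strands; the E2F letters contain no CCAAT box. The windows lie at chr17:78187205-78187454 (minus strand), chr2:10122489-10122738 (plus), chr19:4909251-4909500 (plus), chr17:40287629-40287878 (plus), chr20:33686386-33686635 (minus), chr20:5126623-5126872 (minus), chr3:186806483-186806732 (minus) and chr15:66386718-66386967 (minus).
TK1: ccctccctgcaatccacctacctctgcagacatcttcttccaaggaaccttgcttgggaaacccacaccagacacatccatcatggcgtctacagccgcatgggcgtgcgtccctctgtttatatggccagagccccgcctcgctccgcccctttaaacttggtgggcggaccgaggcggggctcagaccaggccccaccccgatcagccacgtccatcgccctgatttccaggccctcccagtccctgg
RRM2: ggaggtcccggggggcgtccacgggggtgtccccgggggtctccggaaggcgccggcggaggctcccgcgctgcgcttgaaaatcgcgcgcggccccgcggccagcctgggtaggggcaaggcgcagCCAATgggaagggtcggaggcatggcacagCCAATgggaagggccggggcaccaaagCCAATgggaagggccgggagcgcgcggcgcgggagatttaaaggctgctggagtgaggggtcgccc
UHRF1: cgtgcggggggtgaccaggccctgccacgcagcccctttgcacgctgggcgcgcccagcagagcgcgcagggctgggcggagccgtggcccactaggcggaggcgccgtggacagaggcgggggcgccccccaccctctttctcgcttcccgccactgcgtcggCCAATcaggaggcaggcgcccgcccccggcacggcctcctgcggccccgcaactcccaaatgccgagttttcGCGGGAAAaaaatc
CDC6: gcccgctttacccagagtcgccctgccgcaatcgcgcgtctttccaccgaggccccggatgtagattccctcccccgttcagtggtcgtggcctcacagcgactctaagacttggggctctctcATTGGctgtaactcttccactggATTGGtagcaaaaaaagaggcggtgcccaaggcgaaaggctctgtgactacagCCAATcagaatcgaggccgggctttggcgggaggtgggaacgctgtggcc
E2F1: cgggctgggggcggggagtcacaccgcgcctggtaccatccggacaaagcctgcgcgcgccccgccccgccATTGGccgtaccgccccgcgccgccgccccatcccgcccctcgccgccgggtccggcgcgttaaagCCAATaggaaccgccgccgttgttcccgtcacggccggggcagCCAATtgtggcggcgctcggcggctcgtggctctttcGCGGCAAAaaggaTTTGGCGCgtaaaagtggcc
PCNA: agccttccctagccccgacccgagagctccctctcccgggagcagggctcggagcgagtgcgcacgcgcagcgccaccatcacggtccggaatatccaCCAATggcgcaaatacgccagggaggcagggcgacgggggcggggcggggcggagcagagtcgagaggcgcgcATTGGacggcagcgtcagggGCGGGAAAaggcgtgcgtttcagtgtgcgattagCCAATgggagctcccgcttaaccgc
RFC4: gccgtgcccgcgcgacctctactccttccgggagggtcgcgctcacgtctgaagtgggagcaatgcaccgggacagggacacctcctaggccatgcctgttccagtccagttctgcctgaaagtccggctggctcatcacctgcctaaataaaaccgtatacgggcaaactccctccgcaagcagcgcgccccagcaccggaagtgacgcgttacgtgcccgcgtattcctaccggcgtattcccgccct
TIPIN: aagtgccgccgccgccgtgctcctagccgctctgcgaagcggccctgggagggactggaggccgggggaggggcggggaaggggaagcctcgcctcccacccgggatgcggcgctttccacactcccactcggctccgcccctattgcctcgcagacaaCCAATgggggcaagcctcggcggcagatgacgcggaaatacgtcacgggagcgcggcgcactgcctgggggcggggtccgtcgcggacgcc

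An E2F element stood before the start site in 12 of the 37 genes, 32.4%, and in 2.79% of all 27305 genes with a window. With the 50 bases after the start included, 20 of 37 held one, against 3.33% of all genes. CDC6 has its match in those 50 bases, which are not printed. E2F1 has 2 E2F elements near its start, and UHRF1 and PCNA have 1 each. CCAAT boxes stood in 20 of the 37 genes, 54.1%, beside 33.0% of all genes. They also stood in 52.5% of 59 other replication genes and 85.7% of 21 genes of G2 and mitosis. RRM2 and CDC6 carry 3 CCAAT boxes each, PCNA 3 and TIPIN 1. PCNA holds both elements and was not called in the medium comparison, while TK1 holds neither and had the largest difference of the 42. Over the whole window, 14 of 23 genes that rose and 6 of 14 that were not called held an E2F element. No match says only that these letters are not in the window.

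Signals below are given in one order: silenced and induced labelled serum, then silenced and induced labelled serum-free. Fold and log2 differences between media are those of the limma fit.

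Genes that supply deoxynucleotides had the largest median difference of the 8 roles, and all 4 rose. TK1, thymidine kinase of the salvage pathway, read 110.1, 116, 999 and 892 and rose 8.34-fold (log2 3.06, SE 0.19, limma adjusted p 0.0167). It ranked 59 of 12103 genes by this difference. RRM2, the S phase subunit of ribonucleotide reductase, read 368, 725, 2826 and 2409 and rose 5.05-fold (log2 2.34, SE 0.35, adjusted p 0.0257). The silenced culture labelled serum was the lowest by far for RRM2, so its medium difference was 7.68-fold in silenced and 3.32-fold in induced cells. TYMS, thymidylate synthase, read 874, 854, 2809 and 2702, nearly the same in both DACH1 states within each medium, and rose 3.19-fold. RRM1, the large reductase subunit, read 776, 956, 1734 and 1891 and rose 2.1-fold.

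In origin licensing 3 of 4 genes rose. CDC6, which loads the helicase, read 56.1, 83.3, 230.4 and 269.5 and rose 3.65-fold (log2 1.87, SE 0.20, adjusted p 0.0188). Its loading partner CDT1 read 80.1, 91.7, 139.8 and 192, a rise of 1.91-fold (SE of log2 0.19, adjusted p 0.0379). ORC6, the smallest subunit of the origin recognition complex, read 254, 314, 762 and 597 and rose 2.39-fold (SE of log2 0.24, adjusted p 0.0354). ORC1, the largest subunit, read 39.9, 34.1, 47.3 and 66.4 and was not called (log2 0.60, SE 0.25, adjusted p 0.147). For all 4 genes both serum-free signals were above both serum signals.

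The MCM genes encode the replicative helicase, a ring of MCM2 to MCM7, and MCM10, which helps activate it. Of these 7 genes 6 rose, and the median log2 difference was 1.34. MCM5 read 130.2, 248, 569 and 577 and rose 3.19-fold (log2 1.67, SE 0.29, adjusted p 0.0305), MCM7 3.13-fold and MCM10 3.05-fold. MCM3 read 268, 356, 769 and 796, a rise of 2.53-fold. MCM4 rose 1.94-fold and MCM2 1.83-fold, from 387, 566, 814 and 899.5. MCM6 read 1456, 1271, 2026 and 2107, and its 1.52-fold higher signal was not called (log2 0.60, SE 0.19, adjusted p 0.0845), although both serum-free arrays were above both serum arrays. The 6 subunits of the ring thus differed in size of change between 1.52-fold and 3.19-fold. A second, dimmer MCM6 probe set read 54.6, 41.0, 42.2 and 58.1.

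CDC45 and the 4 GINS subunits bind MCM2 to MCM7 to make the active helicase. Of these 5 genes 4 rose, with a median of 1.60. CDC45 read 34.4, 49.2, 139.5 and 160.0 and rose 3.63-fold (log2 1.86, SE 0.19, adjusted p 0.0188). GINS2 read 76.7, 125, 289 and 378, 3.37-fold higher, GINS4 24.7, 16.2, 68.7 and 53.8, 3.04-fold higher (SE of log2 0.19, adjusted p 0.0203), and GINS1 44.9, 71.9, 135 and 155, 2.55-fold higher. GINS3 read 76.2, 81.9, 107 and 119, with a log2 difference of 0.51 that was not called (SE 0.18, adjusted p 0.102). The rise of GINS2 rests on its brightest probe set, which ends in _s_at. Its other 2 probe sets read at most 24.7 on any array, and without probe sets ending in _x_at or _s_at the log2 difference was 0.36 and the adjusted p 0.472.

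At the fork itself 4 of 8 genes rose, and the median of 0.66 was the lowest of the roles. POLA1, the catalytic subunit of the priming polymerase, read 67.0, 87.2, 234 and 209 and rose 2.9-fold. FEN1, the nuclease that trims Okazaki fragments, read 189, 246, 443 and 558 and rose 2.31-fold. Of the clamp loader subunits RFC2 rose 1.86-fold (SE of log2 0.18, adjusted p 0.0364) and RFC3 1.7-fold. RFC5 read 584, 659, 849.7 and 863, which was not called (log2 0.46, SE 0.18, adjusted p 0.129). RFC4 read 462, 565, 441 and 481, with overlapping arrays and a log2 difference of -0.15 (SE 0.18, adjusted p 0.565). PCNA, the sliding clamp and a common marker of S phase, read 1060.5, 1040.3, 1249 and 1428, a log2 difference of 0.35 (SE 0.19, adjusted p 0.224). POLE2, a subunit of the leading strand polymerase, read 68.7, 83.6, 110.0 and 112 and was not called (log2 0.55, SE 0.19, adjusted p 0.101).

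Of the regulators, E2F1 read 44.5, 51.7, 118 and 123 and rose 2.51-fold. E2F8, an E2F that represses the others and is itself an E2F target, read 73.1, 63.6, 222 and 234 and rose 3.34-fold (SE of log2 0.19, adjusted p 0.0195). E2F2 stayed between 47.5 and 72.6 and was not called (log2 0.39, SE 0.18, adjusted p 0.18). Cyclin E activates CDK2 at the start of S phase. Its gene CCNE2 read 119.9, 171, 253 and 289 and rose 1.89-fold, while CCNE1 read 54.0, 93.7, 99.2 and 112 and was not called (log2 0.57, SE 0.24, adjusted p 0.144). For CCNE1 the silenced culture labelled serum was the low one of 4.

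Genes for chromatin behind the fork were unequal. UHRF1, which guides DNMT1 to newly copied DNA, read 299, 472, 1503 and 1448 and rose 3.92-fold (log2 1.97, SE 0.25, adjusted p 0.0215). DNMT1, the maintenance DNA methyltransferase, read 246, 289, 612 and 614 and rose 2.3-fold. The subunits of the histone chaperone CAF-1 were not called: CHAF1A read 82.7, 78.7, 128 and 164 (log2 0.85, SE 0.21, adjusted p 0.0528) and CHAF1B 63.0, 49.1, 97.6 and 81.7 (log2 0.68, SE 0.18, adjusted p 0.0598). SLBP, which binds histone messages, read 1039, 1199, 1121 and 1246, with overlapping arrays and a log2 difference of 0.08 (SE 0.18, adjusted p 0.75).

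In fork protection and repair, BRCA1 read 46.8, 61.0, 145 and 183 and rose 3.05-fold, and the exonuclease gene EXO1 read 43.7, 76.9, 128 and 158 and rose 2.45-fold (SE of log2 0.22, adjusted p 0.0298). CLSPN, which encodes the checkpoint adaptor claspin, was dim at 25.9, 11.2, 41.0 and 52.8. Its medium difference was 1.58-fold in silenced and 4.71-fold in induced cells, and the fit did not call it (log2 1.45, SE 0.43, adjusted p 0.0781). TIPIN, a fork protection factor, read 215, 210.2, 155 and 175, a log2 difference of -0.37 that was not called (SE 0.18, adjusted p 0.201). It was the one gene of the 42 with both serum signals above both serum-free signals.

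**Figure D2:**
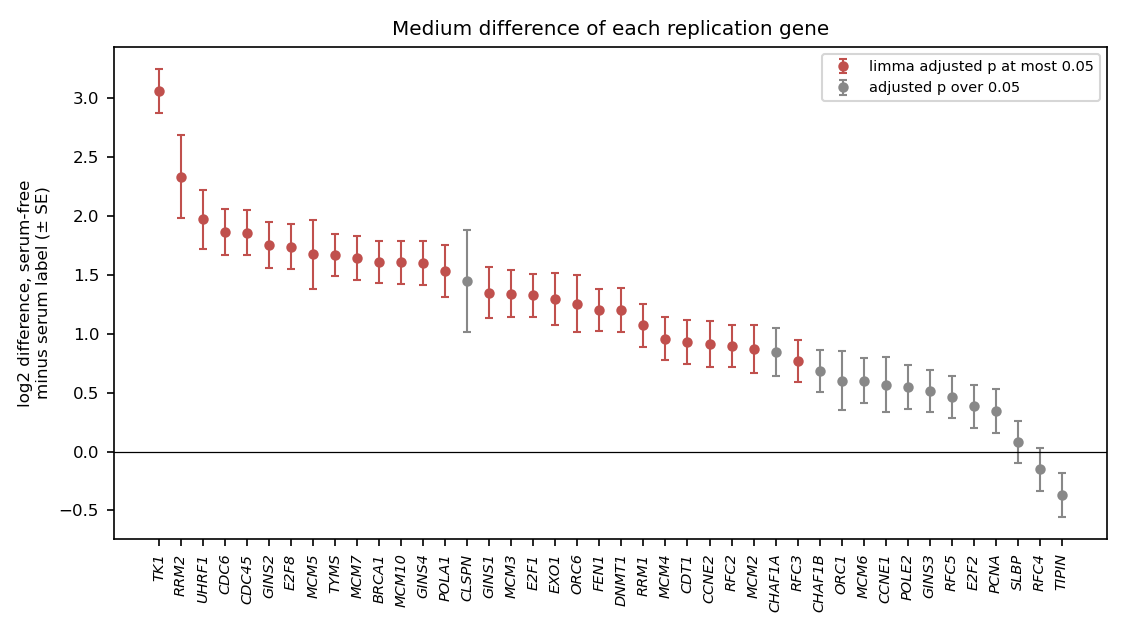
Log2 difference between arrays labelled serum-free and serum for each of the 42 genes with its SE from the limma fit (2 arrays against 2, DACH1 state as a second term), in order of size. The 28 genes with an adjusted p of at most 0.05 are red; TK1 leads at 3.06, and TIPIN is lowest at -0.37.

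Where a gene had several brighter probe sets, these gave the same direction. The 42 genes had 82 one-gene probe sets, 67 of them with an array at 50 or more, and 20 genes had over 1 of these brighter probe sets. In all 20 the brighter probe sets shared the sign of the medium difference. A probe set could reach 50 through the arrays labelled serum-free alone, so this agreement is partly set by the selection. Among probe sets under 50 on every array, 1 of RFC3 gave -0.16, 1 of GINS4 -0.04 and 1 of MCM4 -0.01, and the rest gave 0 or above. The log2 differences of the brighter probe sets within a gene spread over a median range of 0.39. The widest was for CHAF1A, at 1.12, where 2 dimmer probe sets gave 1.67 and 1.97 and the brightest 0.85.

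The rest of the replication pathway was less uniform. Of 67 measured replication genes outside the 42, taken from a list of 73, 24 rose with the serum-free label, beside 15.4% of all genes. Another 5 fell and 38 were not called. The median log2 difference was 0.44, close to the 0.40 of 12 housekeeping genes. ASF1B, a histone chaperone gene, rose 4.14-fold, CCNA2, which encodes the S phase cyclin A2, 3.95-fold and RECQL4, a helicase gene, 3.53-fold. TIMELESS, whose product binds TIPIN, read 49.7, 54.1, 161 and 190.4 and rose 3.37-fold, next to the lower signals of TIPIN. BRIP1, a helicase gene of BRCA1 complexes, rose 3.05-fold.

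The 5 that fell were 5 of 67 genes, where 12.7% of all genes tested fell. RRM2B, the p53-inducible ribonucleotide reductase subunit, read 1120.2, 842, 324 and 361 and fell (log2 -1.51, SE 0.23, adjusted p 0.0257), opposite to RRM2. CDKN1A, the gene of the CDK inhibitor p21, read 2157, 2350.0, 832 and 794 and fell (log2 -1.47, SE 0.18, adjusted p 0.021). The origin recognition complex was mixed. ORC5 read 360.4, 403, 175 and 168 and fell (log2 -1.15), and of the subunits named after their values were seen ORC4 fell (log2 -0.81), while ORC3 (log2 -0.75, adjusted p 0.0506) and ORC2 (log2 -0.04, adjusted p 0.873) were not called, and ORC6 rose. TFDP2, an E2F partner, also fell (log2 -0.82), whereas the partner gene TFDP1, named after its values were seen, read 235, 246, 689 and 771 and rose 3.03-fold. The checkpoint kinase gene ATR read 765, 598, 369.8 and 397 and was not called (adjusted p 0.058). Of the other polymerase and lagging strand genes, 4 of 16 rose and 0 fell, and all 9 measured genes of checkpoint and repair together had 6 that rose and 0 that fell.

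The second comparison was of DACH1-induced with silenced cells. None of the 42 passed the limma fit for DACH1 state, which called 0 of all 12103 genes, 0% as higher and 0% as lower. DACH1 itself had an adjusted p of 0.234 in that fit, so a missed threshold here does not show that a gene is alike in both states. Before adjustment 1 of the 42, GINS2, had a p under 0.05 in limma, where 4.83% of all genes did. The median log2 difference over the 42 was 0.22, beside 0.01 over all genes tested. Induced signals exceeded silenced ones in both media for 27 of the 42 genes, beside 27.5% of all genes. They were lower in both media for 3, GINS4, CHAF1B and TYMS, beside 24.6% of all genes. For GINS4 this rests on its brightest probe set, and dimmer ones were mixed. Of these, 1 read 19.2, 19.3, 23.2 and 31, not lower with DACH1 induced. Another read 12.9, 17.2, 19.2 and 4.7, and another 9.7, 8.7, 25 and 15.4.

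In the arrays labelled serum, most replication genes were somewhat higher with DACH1 induced. Of the 42, 32 were above 0, beside 50.7% of all 12190 genes compared, and the median log2 difference was 0.30. At least 1.5-fold higher were 8 of the 42, beside 9.78% of all genes, and at least 1.5-fold lower 2, beside 12.6%. With 1 array per condition these differences have no test. RRM2 led, 1.97-fold higher, from 368 to 725, followed by MCM5, 1.9-fold, from 130.2 to 248, and EXO1, 1.76-fold, from 43.7 to 76.9. CCNE1 was 1.74-fold, GINS2 1.63-fold, GINS1 1.6-fold, UHRF1 1.58-fold and MCM10 1.51-fold higher. CLSPN was 2.31-fold lower, from 25.9 to 11.2, next to the floor, and GINS4 was 1.52-fold lower, from 24.7 to 16.2. CHAF1B, the third lowest, read 63.0 and 49.1.

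The helicase genes were mostly above 0 in this pair. Of the 7 MCM genes 6 were above 0, with a median log2 difference of 0.52, and 4 of the 5 CDC45 and GINS genes, also with 0.52. TK1 and TYMS, both large in the medium comparison, read 110.1 and 116, and 874 and 854, so deoxynucleotide genes were mixed. E2F1 read 44.5 and 51.7, and E2F8 73.1 and 63.6. Probe sets disagreed in sign here for 3 of the 20 genes with several brighter ones, CHAF1A, MCM7 and TYMS. GINS2 was higher by its brightest probe set only. A dim one read 24.7 silenced and 9.6 induced, and another 11.0 and 9.8, so both induced signals were under the floor and the size of those differences is not measured.

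In the arrays labelled serum-free the differences of the 42 genes were within 1.5-fold. None of the 42 was 1.5-fold higher or lower, where 4.2% of all 12659 genes compared were higher and 9.36% lower. Still, 34 of the 42 were above 0, beside 49.5% of all genes, with a median log2 difference of 0.15. The highest were ORC1 at 1.4-fold, from 47.3 to 66.4, CDT1 at 1.37-fold, from 139.8 to 192, and RFC2 at 1.31-fold, from 210.3 to 276. Lowest were ORC6, 1.28-fold lower, from 762 to 597, GINS4, 1.28-fold lower, from 68.7 to 53.8, and CHAF1B, 1.2-fold lower, from 97.6 to 81.7. All 7 MCM genes were above 0, with a median of 0.14. Brighter probe sets disagreed in sign for 6 of 20 genes, namely CDT1, GINS3, MCM10, MCM4, RRM1 and RRM2. The pairs share no array, and across the 42 genes their DACH1 differences had a Pearson correlation of 0.08, with 0.10 across all genes tested.

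Genes of G2 and mitosis were mostly below 0 in this pair. Of 26 such genes 23 were below 0 and 2 above, with a median of -0.17, while in the arrays labelled serum 24 were above 0, with a median of 0.35. Housekeeping genes had a median of -0.18 labelled serum-free, or 0.00 with quantile normalization, which left 33 of the 42 replication genes above 0 and 24 of 26 mitotic genes below. The difference between both lists was not tested. In the medium comparison 25 of the 26 mitotic genes rose and 0 fell, beside 15.4% and 12.7% of all genes tested, with a median of 1.78.

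**Figure D3:**
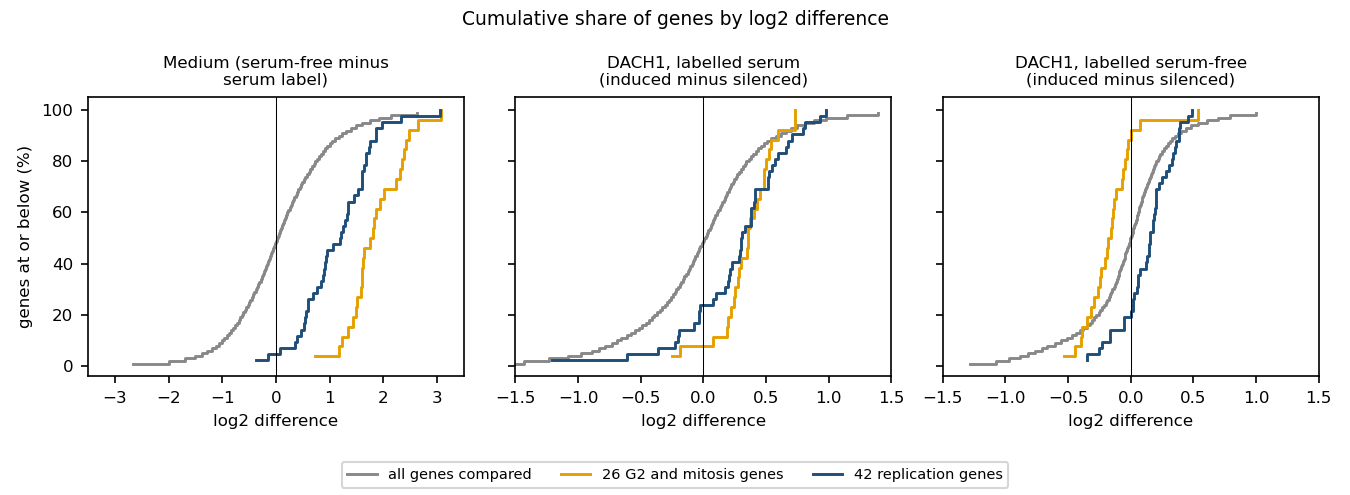
Share of genes at or below each log2 difference, for the 42 replication genes, 26 genes of G2 and mitosis and all genes compared (drawn as percentiles from 1 to 99); each panel has its own x range. Replication genes lie to the right of all genes in the medium panel (medians 1.20 and 0.02), and in the serum-free DACH1 panel they lie right of 0 (0.15) while mitotic genes lie left of it (-0.17).

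The DACH1 differences of both media can be set side by side without an error, since each rests on a pair of arrays. The one labelled serum-free was the lower for 31 of the 42 genes, beside 51.3% of all genes tested, and the median difference of differences was -0.16, beside -0.01 over all genes. That median was lower still for 12 housekeeping genes, at -0.23, and for 26 genes of G2 and mitosis, at -0.57. The shift is thus not particular to the replication genes. The sign of these values, serum-free minus serum label, would also turn if the medium labels were exchanged. RRM2 had the lowest difference of differences at -1.21, then MCM5 at -0.91 and UHRF1 at -0.71. For these 3 the silenced culture labelled serum was lowest, and the cultures labelled serum-free differed by at most 1.17-fold. The highest were CLSPN at 1.57, ORC1 at 0.72 and CHAF1A at 0.42. CLSPN and ORC1 read under 70 on every array. The signal of DACH1 in induced cells also differed between the media, at 4431 and 875.1, and its part in these differences was not tested.

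**Figure D4:**
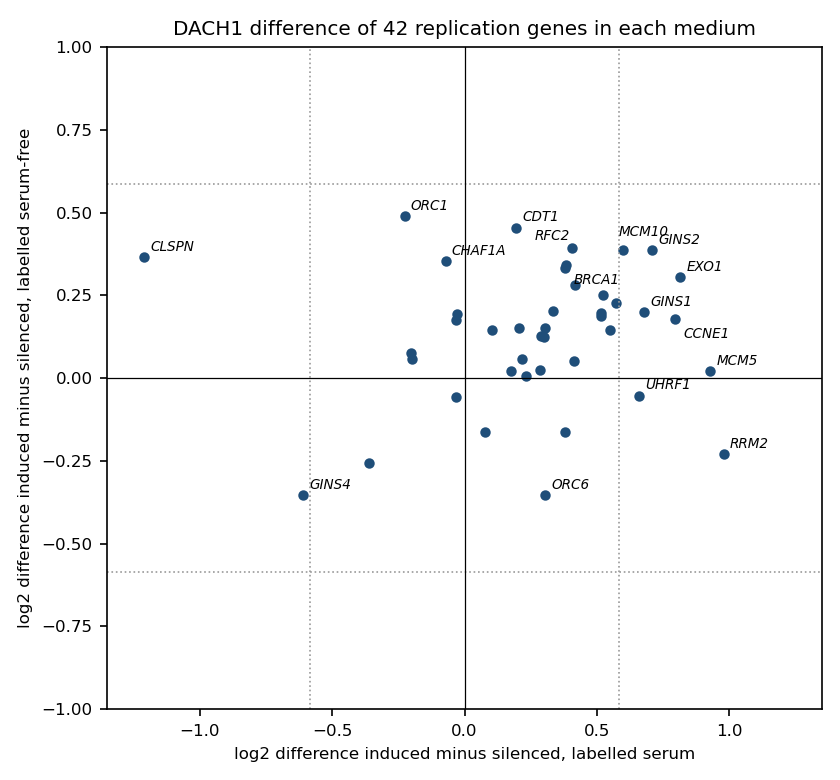
Log2 difference between DACH1-induced and silenced arrays labelled serum (x) and labelled serum-free (y), 1 point per gene, with dotted lines at 1.5-fold. Of the 42 genes 10 lie outside the dotted lines along x and 0 along y, and 27 lie above 0 on both axes.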

How the data were processed

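Each of 4 arrays has a deposited intensity for every probe set, linear in scale, and the submitters' processing notes name MAS5; version, target and chip definition: not given in the sources used here. Labelled cRNA came from 6 µg total RNA, per the labels' protocols. Means after trimming 2% of probe sets at each end lay near 99.6 on every array, so arrays were not rescaled. Detection calls were not used here. The 54613 probe sets were named from GEO's platform annotation, with symbols updated through Entrez identifiers for 99.9%: 41091 had 1 gene, 1801 several and 11721 were unnamed here.

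The brightest probe set by mean log2 signal stood for a gene. A floor of 10.9, the 40th percentile over all arrays, was applied before log2. A gene entered a pair if 1 array, and the fit if 2 arrays, reached the median signal (17.2). limma (lmFit, eBayes) was fitted on 12103 genes (terms: medium, DACH1 state; 1 residual degree of freedom), with Benjamini-Hochberg adjustment, and was tested on simulated data. Adjusted p-values and SE are from limma throughout.

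The 42 genes, the other lists and the rules were chosen with earlier results of these data known. All 42 could be named. The medium effect, its SE and adjusted p were given at least for the 5 largest and 5 smallest medium differences, the extremes of the DACH1 pairs and of their difference, and genes not called. From the other replication genes the 5 highest and 5 lowest were named. Of 168 other listed genes 17 were not analysed here. Alternatives changed the filter (none, or all arrays above the median), the floor (none, 50 with arrays at 100 or more, or used as a pseudocount), the scaling (quantile), the probe sets (their mean, or none ending in _x_at or _s_at), the variance prior (with a trend) and the arrays (each left out). limma 3.58.1 ran in R 4.3.3, and promoters, from RefSeq, were read in Python 3.11.15.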

Additional observations from a re-analysis of the deposited data

Results flagged for a closer look

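For 3 genes the DACH1 difference was at least 1.5-fold in the medium labelled serum and had the opposite sign in that labelled serum-free. The difference between media was not tested, since each condition has 1 array. RRM2 was higher with DACH1 in the first (log2 0.98) and lower in the second (-0.23), a difference of differences of -1.21. Another bright RRM2 probe set gave 0.85 and 0.02, so the opposite sign depends on the probe set. UHRF1 had 0.66 and -0.05, a difference of -0.71. CLSPN went the other way, with -1.21 and 0.36, a difference of 1.57, on signals between 11.2 and 52.8. A dimmer CLSPN probe set gave -0.24 and 0.29. Another gave 0 and 0.52, with both signals labelled serum under the floor. The size of the CLSPN values thus depends on the probe set.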

How the results depend on the processing

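The medians of the 42 genes kept their sign in each comparison under all alternatives run. Without a filter on low signals, limma called 0 of the 42 for medium (26 had an unadjusted p under 0.05) and 0 of all 19775 genes. With no probe set of the _x_at or _s_at kind, 31 genes were measured and limma called 17 higher. It left 16 at 2-fold between media in silenced cells, with a median log2 difference of 1.08, and 1, RFC2, at 1.5-fold between DACH1 states labelled serum-free. With a floor of 50 and an array at 100 or more, 4 of 23 genes were 1.5-fold different between DACH1 states labelled serum, where 10 of 42 were before, and none of the 4 was lower. The DACH1 difference of GINS2 labelled serum turned to -0.16 with the mean of all probe sets and to -1.18 without _x_at and _s_at probe sets. Both rest on dim probe sets with an induced signal under the floor, so the floor sets their size. With each array left out, which leaves no test, each difference rests on the single remaining pair of arrays. The median medium difference of 1.06 to 1.19 and the median DACH1 difference of 0.15 to 0.30 are thus the pair values given above, not a separate check. Over the other alternatives limma called between 21 (no floor) and 31 (floor of 50, 36 genes tested) higher for medium and 0 lower. Without a floor 7 genes lost the call, namely ORC6, CDT1, MCM2, MCM4, RFC2, RFC3 and CCNE2, and with the mean of probe sets GINS2 and RFC3 did. RFC2 and GINS2 lost it without _x_at and _s_at probe sets. CHAF1A gained it with a pseudocount, a floor of 50, the mean of probe sets, every array above the median or a trended prior. MCM6 gained it with a floor of 50 or a trended prior, GINS3 and POLE2 with a floor of 50, and CHAF1B with the mean of probe sets or every array above the median. No paired analysis was possible because each condition has 1 array and the labels number no replicates. Signals near the floor, as for CLSPN and GINS4, are the least certain.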
